A study of Mus musculus with 73 samples.

Results

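The genes of glutamate loading and vesicle release Slc17a8, Otof, Slc7a14, Dnajc5b and Dnajc5 were followed over 73 single inner hair cells. The 5 members were chosen by name, with earlier results of these data known, out of 55291 gene rows, and all 5 had a row. Every cell was picked by hand from mouse cochlea at postnatal day 14 and is labelled as a Casz1 -/- inner hair cell (IHC). All cells share 1 genotype: Atoh1Cre/+ acts on Casz1flox/flox and on the loxP-stopped CAG-3xGFP of Ai47 in Rosa26, and Fgf8-Flpo/+ acts on a Frt-stopped CAG-tdTomato on the other Rosa26 allele. Atoh1 is active in developing hair cells in general and Fgf8 marks inner hair cells, and the picked cells were GFP+/tdTomato+. Which animal a cell came from is not in the labels, so all 73 cells count as 1 sample with no replicates, and wild-type cells were not analysed here. The values describe how the genes vary among Casz1-null cells, with no p-value, and say nothing of what the deletion changed.

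The inner hair cell signals to the auditory nerve by releasing glutamate at ribbon synapses. Slc17a8 encodes VGLUT3, the transporter that fills the vesicles with glutamate, and Otof encodes otoferlin, the multi-C2-domain calcium sensor needed for release. Dnajc5 and Dnajc5b encode the cysteine string proteins alpha and beta, J-domain co-chaperones that sit on vesicles and keep release proteins folded together with the heat shock cognate protein Hspa8. Slc7a14 encodes a lysosomal member of the cationic amino acid transporter family, known as a retinal disease gene. Slc26a5, the gene of the outer hair cell motor prestin, served here only to order the cells.

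Each library held 11027945 to 37183702 counts, and 0 libraries were copies of another. Levels are CPM, counts scaled by each library's total. Detection means 10 CPM or more in a cell, and shares of cells carry exact Clopper-Pearson 95% intervals. These treat cells as independent draws and cover no difference between animals. The label was checked on markers that are not members. All 6 inner hair cell markers (Tbx2, Gata3, Calb2, Atp2a3, Fgf8 and Shtn1) were detected in 50 to 73 cells, and all 7 general hair cell markers in 69 to 73. Of 9 outer hair cell markers, Slc26a5, Ocm, Kcnn2 and Sri were detected in 51 to 71 cells. Chrna10 was detected in 31 cells, Lbh in 20, Ikzf2 in 6, Bcl11b in 1 and Insm1 in 0. Of 32 rare markers of other cell types, each detected in under 10 cells, at least 1 reached 50 CPM in 19 cells.

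Slc17a8 and Otof were present in every cell at high levels, and the other members were lower and patchier. The plot of levels by Slc26a5 range shows all 73 values of each gene. Slc17a8 had a lowest, median and highest level of 436, 1346 and 2992 CPM, with quartiles at 1076 and 1700 CPM. Otof had 947, 2912 and 6440 CPM, with quartiles at 2205 and 3558 CPM. The highest cell thus held 6.86 times the lowest for Slc17a8 and 6.80 times for Otof, and no cell was near detection. Slc17a8 lies on chromosome 10 (mm10, 89574020 to 89621253, minus strand) and Otof on chromosome 5 (30367062 to 30461932, minus strand).

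Dnajc5b ran from 0.545 CPM in library 46 (9 counts) through a median of 401 CPM to 1090 CPM, with 72 of 73 cells at detection (98.6%, interval 92.6 to 99.965). Slc7a14 had a median of 143 CPM and a highest value of 563 CPM. Its detection reached 63 cells (86.3%, interval 76.2 to 93.2), and 3 cells had no count. Dnajc5 had a median of 97.3 CPM and a highest value of 431 CPM, with detection in 61 cells (83.6%, interval 73.0 to 91.2) and no count in 3. All 5 members were detected together in 55 cells, 4 of them in 13 cells and 3 in 5 cells. Dnajc5b and Slc7a14 share chromosome 3, at 19508595 to 19610862 (plus strand) and 31202858 to 31310378 (minus strand), and Dnajc5 lies on chromosome 2 (181520485 to 181555133, plus strand).

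Per length the order changed, because Dnajc5b has the shortest gene model. Levels between genes were compared as CPM per kb of annotated exons, which were 1259 bases for Dnajc5b, 4720 for Slc17a8, 6953 for Dnajc5, 7904 for Otof and 9829 for Slc7a14. Otof had a median of 368 CPM per kb (quartiles 279 and 450), Dnajc5b 318 (quartiles 175 and 585) and Slc17a8 285 (quartiles 228 and 360). The quartile ranges of these 3 genes overlapped. Slc7a14, at a median of 14.5 CPM per kb (quartiles 6.09 and 25.0), and Dnajc5, at 13.9997 (quartiles 5.62 and 25.4), formed a lower pair with overlapping quartile ranges. These values assume that the cells use the whole annotated exon length.

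Of the cysteine string proteins, the beta form was the more abundant in all cells but 1. Dnajc5b made up a median of 96.4% of the summed CPM per kb of Dnajc5 and Dnajc5b (quartiles 90.9 and 98.4). It was under 50% in 1 cell, library 46, where it fell to 1.11%. Without division by length the median was 82.8%, and 9 cells were under 50%. Dnajc5g, which encodes the gamma form, was detected in 2 cells, at up to 135 CPM, and had no count in 70.

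The members fell into a steady pair and a variable trio. The coefficient of variation (CV, SD over mean of CPM) was 34.7% for Otof and 35.2% for Slc17a8, against 64.4% for Dnajc5b, 85.2% for Slc7a14 and 86.4% for Dnajc5. The neighbours in this order, Otof with Slc17a8 and Slc7a14 with Dnajc5, changed places under other measures. The ratio of upper to lower quartile was 1.58 for Slc17a8, 1.61 for Otof, 3.34 for Dnajc5b, 4.11 for Slc7a14 and 4.52 for Dnajc5. The SD of log2(CPM + 1) was 0.53 for Otof, 0.57 for Slc17a8, 1.45 for Dnajc5b, 2.44 for Dnajc5 and 2.61 for Slc7a14. With a pseudocount of 10 it was 1.56 for Dnajc5 and 1.72 for Slc7a14. Counting error of reads at the median count was far smaller, from 0.461% for Otof to 2.43% for Dnajc5. PCR copies are counted too, so this is a lower bound on technical error, which was not measured.

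Set against genes of like level, the order was another one. Low genes vary more in single cells, so the squared CV was compared with a trend over mean level through the 8619 genes that average at least 10 CPM. The CV was 1.38 times the trend for Dnajc5b, 1.29 times for Slc7a14 and 1.27 times for Otof, but 1.10 times for Dnajc5 and 1.06 times for Slc17a8. Of all genes, 4.26% exceeded the trend by more than Dnajc5b, 6.79% by more than Slc7a14 and 7.63% by more than Otof, against 26.5% for Dnajc5 and 35.5% for Slc17a8. Dnajc5 thus had the highest CV of the members but lay close to the trend for its level. The order against the trend depends on the genes it is drawn through. With no filter on low counts the excess of log10 squared CV was 0.44 for Otof, 0.31 for Dnajc5b, 0.22 for Slc7a14, 0.18 for Slc17a8 and 0.074 for Dnajc5, against 0.21, 0.28, 0.22, 0.05 and 0.08 with it. The CV of Calb2, a calcium buffer, was 3.17 times the trend, and that of Atp2a3, which encodes the calcium pump SERCA, was 2.96 times, both beyond any member.

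**Figure D1:**
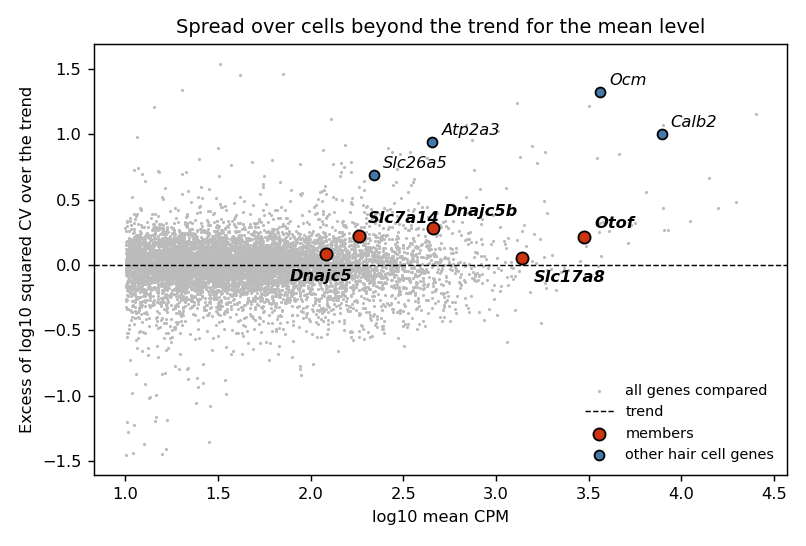
Each point is 1 of the genes averaging at least 10 CPM, by log10 mean CPM (x axis) and by the excess of its log10 squared CV over the lowess trend (y axis). The 5 members lie between 0.05 and 0.28 above the dashed trend line, and Calb2, Atp2a3, Slc26a5 and Ocm lie between 0.69 and 1.32.

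Cells were then ordered by Slc26a5, in ranges of under 10 CPM (22 cells), 10 to under 100 CPM (19 cells) and 100 CPM or more (32 cells). These are ranges of a level that is continuous over cells, not cell types. Dnajc5b and Slc7a14 were far lower in the cells with much Slc26a5, Slc17a8 and Otof were moderately lower, and Dnajc5 showed little relation. The rank correlation with Slc26a5 was -0.63 for Dnajc5b, -0.58 for Slc7a14, -0.37 for Otof, -0.32 for Slc17a8 and -0.10 for Dnajc5 (73 cells). Dnajc5b and Slc7a14 were thus 2 of 5 members at -0.5 or lower, against 0.87% of the 8618 genes compared. The members were chosen with earlier results of these data known, so shares of members, here and below, are descriptions and no test. None of the 5 reached 0.5, which 1.35% of genes did. Slc7a14 missed -0.5 when ranks were corrected for the mitochondrial share (-0.47), for the ribosomal protein share (-0.42) or for mitochondrial share, total counts and genes together (-0.43). With cells ordered by Ocm in place of Slc26a5, both missed it, at -0.48 for Slc7a14 and -0.46 for Dnajc5b. Both genes of each pair are read from the same 73 libraries and share their depth, so the values are descriptions.

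**Figure D2:**
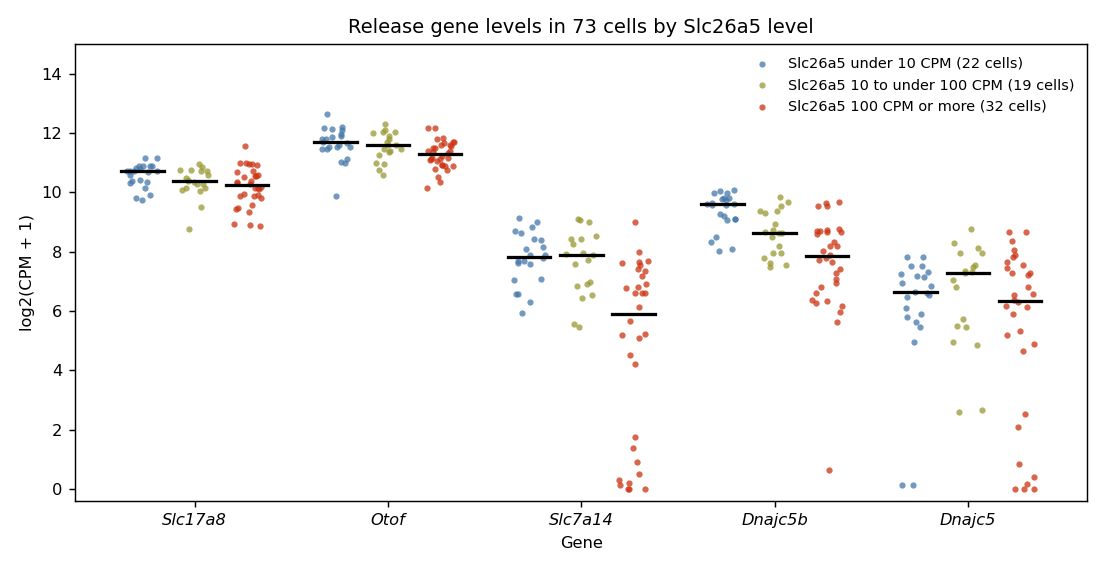
Each point is 1 cell, the y axis is log2(CPM + 1), and cells are split by Slc26a5 level from low to high. Black bars are medians; those of Slc7a14 are 226, 237 and 58.999 CPM and those of Dnajc5b 773, 399 and 228 CPM.

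Dnajc5b went down in steps along the 3 ranges. From low to high Slc26a5 its medians were 773, 399 and 228 CPM, with ranges of 260 to 1090, 177 to 916 and 0.545 to 809 CPM. The cells with 100 CPM or more of Slc26a5 had 0.29 times the median of the cells under 10 CPM. The ranges overlapped, but 18 of the 32 high cells and 6 of the 19 middle cells lay below the lowest low cell, and 8 of the 22 low cells lay above the highest high cell. Only 2 high cells reached the median of the low cells. The correlation was -0.47 among the 32 high cells alone and 0.079 among the 19 middle cells.

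Slc7a14 did not go down in steps. Its medians were 226, 237 and 58.999 CPM, with ranges of 59.8 to 563, 42.6 to 552 and 0 to 513 CPM. The middle cells had 1.05 times the median of the low cells, and the high cells had 0.26 times the median of the low cells and 0.25 times that of the middle cells. Of the 32 high cells, 16 lay below the lowest low cell. Detection was complete in the low cells (22 of 22, interval 84.6 to 100) and the middle cells (19 of 19, interval 82.4 to 100), and it was 22 of 32 in the high cells (68.8%, interval 49.992 to 83.9).

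All 10 cells without detected Slc7a14 were thus high in Slc26a5, at 328 to 1132 CPM (median 538). Their Slc7a14 was at most 2.39 CPM, so these were not cells just under the threshold. In the same 10 cells Slc17a8 was 468 to 2018 CPM, Otof 1137 to 3062 CPM and Dnajc5b 0.545 to 437 CPM. The 10 cells had medians of 847 CPM for Slc17a8, 2203 CPM for Otof and 108 CPM for Dnajc5b, against 1269, 2681 and 307 CPM in the other 22 high cells. Dnajc5 went the other way, with medians of 94.7 CPM in the 10 and 76.0 CPM in the 22 cells. The 22 cells also had less Slc26a5, at a median of 337 CPM, so the sets were not matched for it. The ranges of all these genes overlapped between the 10 and the 22 cells.

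Slc17a8 and Otof were lower by smaller steps and kept their detection. Slc17a8 had medians of 1679, 1320 and 1208 CPM from low to high Slc26a5, and 0.72 times the low median in the high cells. Its ranges were 863 to 2301, 436 to 1999 and 468 to 2992 CPM. The cell with the most Slc17a8 was a high one, and 7 of the 32 high cells reached the low median. Otof had medians of 3280, 3102 and 2495 CPM, with ranges of 947 to 6440, 1549 to 5057 and 1137 to 4639 CPM, and 0.76 times the low median in the high cells. The lowest Otof value was in a low cell, and no high cell fell below it. The ratio of Slc17a8 to Otof had medians of 0.491, 0.397 and 0.483 from low to high Slc26a5, and its correlation with Slc26a5 was 0.0031. Within the low, middle and high cells, the correlation of Slc17a8 with Slc26a5 was 0.32, -0.33 and -0.31, and that of Otof 0.24, 0.084 and -0.35. In the low cells Slc26a5 itself is under detection.

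Dnajc5 had medians of 98.3, 155 and 79.6 CPM, highest in the middle range. Its ranges were 0.107 to 226, 5.04 to 431 and 0 to 404 CPM, and the highest values of the middle and high cells exceeded that of the low cells. The high cells had 0.81 times the low median but 1.09 times the low mean, so the direction turned with the measure. It was under 10 CPM in 2 of 22 low, 2 of 19 middle and 8 of 32 high cells, and the detection intervals overlapped (70.8 to 98.9, 66.9 to 98.7 and 56.6 to 88.5). The 12 cells without detected Dnajc5 had a median of 273 CPM of Dnajc5b and 1149 CPM of Slc17a8. The summed CPM per kb of both cysteine string proteins had medians of 630, 342 and 190 from low to high Slc26a5, and its correlation with Slc26a5 was -0.64.

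**Figure D3:**
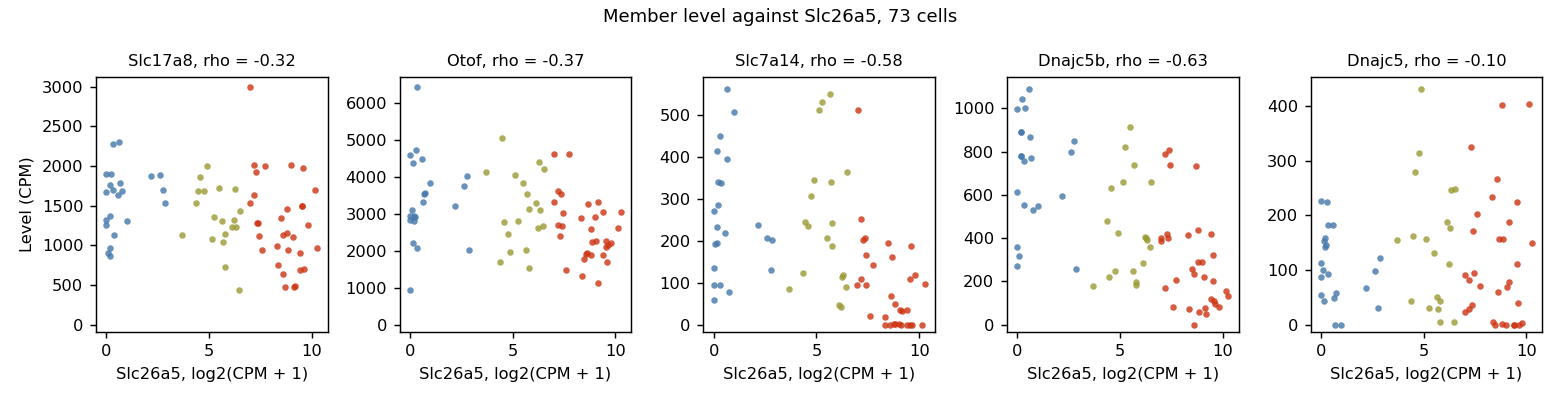
Each point is 1 cell, by Slc26a5 as log2(CPM + 1) (x axis) and member level in CPM (y axis), coloured by the 3 Slc26a5 ranges (blue low, olive middle, red high). The 10 cells near 0 for Slc7a14 all lie at the right, while Slc17a8 is at 436 CPM or more throughout.

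Folds of this size were common over all genes and less so at the members' level. A median at least 2-fold lower in the high than in the low cells was found for 2 of 5 members (Slc7a14 and Dnajc5b), against 27.4% of all 8618 genes, and 17.1% were at least 2-fold higher. Low genes widen this background: the fold had quartiles of 0.269 and 1.37 over the 7156 genes for which it is defined. Among the 1968 genes averaging at least 100 CPM, which include all 5 members, 5.39% were at least 2-fold lower, a background chosen after the folds were seen. The median fold was 1.04 (quartiles 0.801 and 1.33) over 1961 of them. In that set 0.969% of genes had a lower fold than Slc7a14 and 1.27% than Dnajc5b, against 17.5% for Slc17a8, 21.2% for Otof and 26.01% for Dnajc5.

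**Figure D4:**
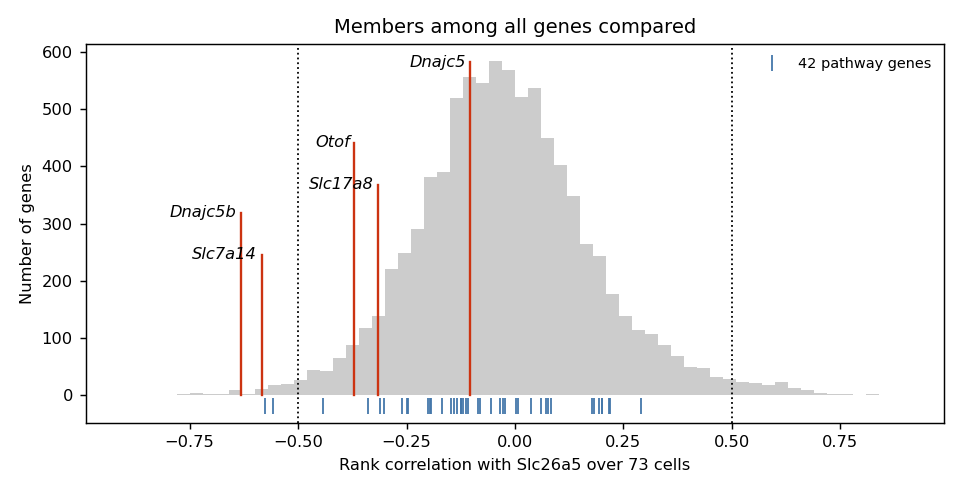
Grey bars count the 8618 genes by rank correlation with Slc26a5 over 73 cells (x axis), red lines mark the members, blue ticks 42 pathway genes, and dotted lines -0.5 and 0.5. Dnajc5b (-0.63) and Slc7a14 (-0.58) lie beyond the dotted line, and Dnajc5 (-0.10) lies within the bulk.

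Library properties moved with Slc26a5 and with the members. From low to high Slc26a5 the mitochondrial share of counts had medians of 8.80%, 6.06% and 5.08%, the ribosomal protein share 1.54%, 1.75% and 2.00%, and the total counts 15701500, 17333600 and 19196100. With the mitochondrial share, the rank correlation was 0.47 for Otof, 0.47 for Dnajc5b, 0.45 for Slc7a14, 0.41 for Slc17a8 and 0.18 for Dnajc5. With ranks corrected for it, the correlation with Slc26a5 was -0.52 for Dnajc5b and -0.47 for Slc7a14, against -0.18 for Otof, -0.15 for Slc17a8 and -0.019 for Dnajc5. Corrected for the ribosomal protein share, it was -0.50 for Dnajc5b, -0.42 for Slc7a14, -0.20 for Slc17a8, -0.041 for Otof and -0.0073 for Dnajc5. The part of these properties in the result was not tested.

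Summed markers of some other cells also moved with Slc26a5, with rank correlations of 0.53 for glia, 0.35 for neurons and -0.33 for endothelium. Supporting cells stood at -0.082, and mesenchyme, blood, immune cells, B lymphocytes and stria between -0.14 and 0.19. The endothelial and B lymphocyte sums had medians of 0, but the latter reached 6580 CPM in the middle range. The immune gene C1qb was detected in 22 cells, at up to 307 CPM. The summed level of 6 glial markers had medians of 0.136, 20.7 and 98.4 CPM from low to high Slc26a5, with highest values of 154, 498 and 301 CPM. Its correlation was -0.49 with Slc17a8, -0.48 with Dnajc5b, -0.33 with Otof, -0.32 with Slc7a14 and -0.11 with Dnajc5. Of the 6, Cnp was detected in 29 cells and Sox10 in 27. Mal was detected in 1 cell and Mbp, a myelin gene, in 0. The summed level of 9 neuronal markers had medians of 416, 377 and 604 CPM and ranges of 71.3 to 888, 95.3 to 1601 and 132 to 1262 CPM. Of these, Slc17a6 and Stmn2 were detected in 0 cells and Slc17a7 and Rbfox3 in 1 each, while Nefl, Nefm and Snap25 were in 64 to 70. Supporting cell markers (8 genes) had medians of 164, 206 and 166 CPM. Of these, Ptprz1 was detected in 61 cells (median 153 CPM), and the others had a median of 0 and were detected in 1 to 11 cells. Slc17a6, Slc17a7, Snap25, Syn1 and Slc1a3 are also among the pathway genes given further on. Without the 19 cells holding a rare marker, the high cells had 0.30 times the low median for Dnajc5b and 0.40 times for Slc7a14. Cnp and Sox10 were detected too widely to count as rare markers, so leaving out these cells was no check on the glial sum. The part of other cells' RNA in these results was not tested.

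Rank correlations between the members were positive over the 73 cells and lowest for Dnajc5. Slc7a14 and Dnajc5b were the closest pair, with a rank correlation of 0.57 over 73 cells, and 0.0696% of genes were closer to Slc7a14 than Dnajc5b was. With Slc26a5 ranks removed the value was 0.31. Among the 32 high cells it was 0.53, and it was 0.34 among the 19 middle and 0.24 among the 22 low cells. Slc17a8 stood at 0.42 with Slc7a14 and 0.37 with Dnajc5b. Otof stood at 0.39 with Slc7a14 and 0.38 with Dnajc5b. These were lower with Slc26a5 ranks removed, at 0.30 for Slc17a8 with Slc7a14, 0.24 for Slc17a8 with Dnajc5b, 0.23 for Otof with Slc7a14 and 0.20 for Otof with Dnajc5b. Corrected instead for the mitochondrial share they were 0.29, 0.23, 0.22 and 0.20 in the same order. Within the 19 middle cells Otof and Slc7a14 stood at -0.070. Slc17a8 and Otof, the glutamate transporter and the release sensor, were less alike, at 0.25, and 0.065 corrected for the mitochondrial share. Before correction, 5.29% of genes were closer to Slc17a8 than Otof was. Dnajc5 stood between 0.064 and 0.17 with the other members, and at 0.091 with Dnajc5b, the other cysteine string protein. Within the 19 middle cells, however, Dnajc5 stood at 0.635 with Slc17a8, against -0.058 in the low and 0.011 in the high cells. It is named as the highest value of any member pair within any range, so it is a picked extreme from few cells.

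**Figure D5:**
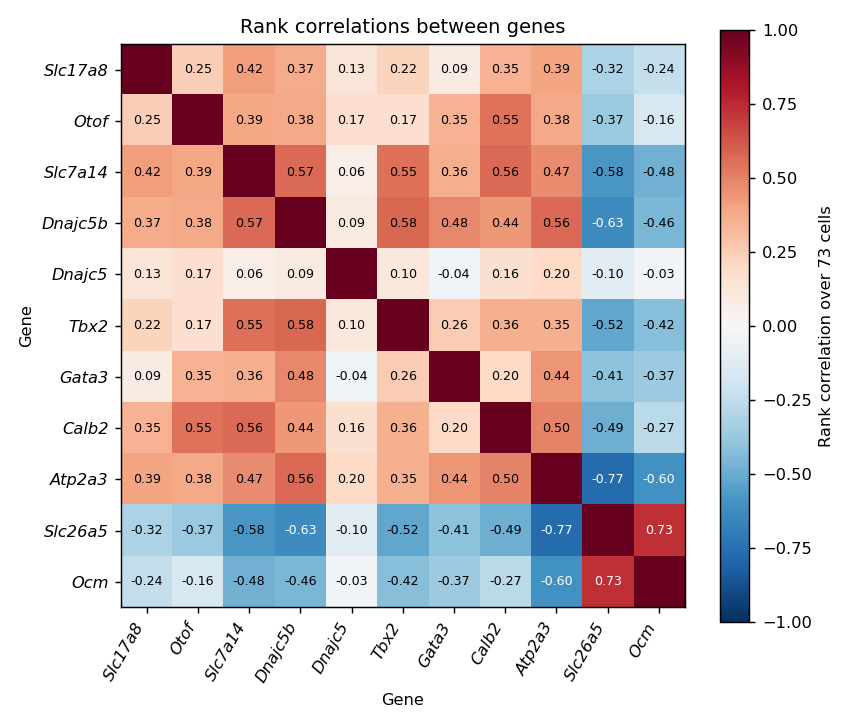
Rank correlations over 73 cells between the members (first 5 rows) and 6 other hair cell genes, on a colour scale from -1 to 1. Among the members, Slc7a14 and Dnajc5b have the strongest values with Slc26a5 and with Tbx2, and the row of Dnajc5 is pale throughout, at -0.10 to 0.20.

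Tbx2, a T-box factor that maintains inner hair cell identity, followed Slc7a14 and Dnajc5b more closely than Slc17a8 and Otof. It stood at 0.58 with Dnajc5b and 0.55 with Slc7a14, against 0.22 with Slc17a8 and 0.17 with Otof. Calb2 stood at 0.56 with Slc7a14 and 0.55 with Otof, against 0.44 with Dnajc5b and 0.35 with Slc17a8. Atp2a3 stood at 0.56 with Dnajc5b and 0.47 with Slc7a14. Tbx2 was detected in 22 of the 32 high cells, and it had medians of 193, 165 and 50.6 CPM from low to high Slc26a5. With Slc26a5 itself, Tbx2 stood at -0.52, Calb2 at -0.49 and Atp2a3 at -0.77. Slc26a5 ranks were not removed from the values with the members.

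The letters AGGTGT were searched because they bear on Tbx2, a T-box factor, which stood at 0.55 with Slc7a14 and 0.22 with Slc17a8. The promoters shown are those of Slc7a14 and Slc17a8, the 2 members whose windows were matched. They are the RefSeq windows of 250 bases before to 50 after the start on GRCm38.p6, at chr3:31310270-31310569 and chr10:89621200-89621499, both on the minus strand and written 5′ to 3′. Windows for 2 of the 5 members were matched, and Otof, Dnajc5b and Dnajc5 were not. Capitals mark the letters AGGTGT, the core of T-box sites, searched on both strands.

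Slc7a14: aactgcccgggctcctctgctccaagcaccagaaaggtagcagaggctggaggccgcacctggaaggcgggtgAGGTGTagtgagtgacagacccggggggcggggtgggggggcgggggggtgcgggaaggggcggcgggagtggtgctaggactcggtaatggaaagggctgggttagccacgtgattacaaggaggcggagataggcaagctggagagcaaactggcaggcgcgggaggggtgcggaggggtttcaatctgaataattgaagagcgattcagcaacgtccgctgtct

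Slc17a8: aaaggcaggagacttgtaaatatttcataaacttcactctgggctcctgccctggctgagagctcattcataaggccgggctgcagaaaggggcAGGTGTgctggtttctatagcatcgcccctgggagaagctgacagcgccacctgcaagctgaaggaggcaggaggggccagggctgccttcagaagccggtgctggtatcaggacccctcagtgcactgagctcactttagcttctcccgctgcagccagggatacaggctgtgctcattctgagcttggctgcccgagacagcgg

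AGGTGT occurred once in each window, 177 bases before the start in Slc7a14 and 156 before it in Slc17a8, and in 13.7% of the 32851 windows of all genes. Each window also held the E-box letters CANNTG at 2 places, which 72.3% of windows have, and in Slc17a8 1 of these overlapped AGGTGT. The letters GATAA, the core of GATA sites, were in neither window and in 25.4% of all windows. A match describes the letters only. The guanine and cytosine content was 63.3% for Slc7a14 and 58% for Slc17a8, against a median of 52.7% over all windows.

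The genes most like each member were taken from the 5 with the highest rank correlation over 73 cells. Dnajc5b was closest to Tomm7 (0.77), a subunit of the mitochondrial import pore, the kinase genes Map4k4 (0.75) and Rps6ka2 (0.71), Ripor3 (0.70) and Prkra (0.67). Slc7a14 was closest to Tomm7 (0.64) too, followed by Osbp2 (0.62), Chst2 (0.60) and Rps6ka2 (0.59). Slc17a8 was closest to Igfbp5 (0.56), the clathrin assembly gene Snap91 (0.55), Malat1 (0.54), Ate1 (0.53) and Pam16 (0.53). Otof was closest to Ermp1 (0.60), the mitochondrial carrier gene Slc25a25 (0.58), the mitochondrial ribosomal RNA mt-Rnr2 (0.56), Dnm1 (0.56) and Alk (0.55). All these genes were themselves negative with Slc26a5, from -0.74 for Rps6ka2 to -0.19 for Pam16, and Slc26a5 was not removed. Corrected for the mitochondrial share, Tomm7 stood at 0.69 with Dnajc5b and 0.52 with Slc7a14, and Igfbp5 at 0.43 with Slc17a8. With Otof, Ermp1 then stood at 0.49 and mt-Rnr2, itself part of that share, at 0.36. Dnajc5 had no gene at 0.5 or higher, against 51 for Dnajc5b, 27 for Slc7a14, 8 for Otof and 6 for Slc17a8. Among its closest were Dgcr2 (0.43), Abhd18 (0.40), Cetn4 (0.40) and Sdccag8 (0.38), and these 4 had medians under 1 CPM.

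Relatives of the members were mostly missing from these cells. Slc17a7 and Slc17a6, the other vesicular glutamate transporters, were detected in 1 and 0 cells, at up to 59.3 and 8.12 CPM. Slc32a1, which loads inhibitory transmitters, had no count in any cell. Of the ferlins, Fer1l5 was detected in 19 cells (up to 61.3 CPM), Dysf in 2, Fer1l4 and Fer1l6 in 1 each and Myof in 0. The other cationic amino acid transporters were low, with Slc7a1 and Slc7a4 in 39 cells each (medians 16.5 and 16.8 CPM), Slc7a3 in 8 and Slc7a2 in 1.

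Strand use in counting is not stated, so overlapping genes may share reads. Gm15496, antisense to Slc7a14, was detected in 3 cells, and in Dnajc5b the genes Gm23330, Gm6141 and 1700064H15Rik were detected in 1, 5 and 4 cells.

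The pathway was read from 58 further genes in 9 lists, of which 42 averaged at least 10 CPM. Of the 42, 2 had a correlation of -0.5 or lower with Slc26a5 (background 0.87%) and 0 of 0.5 or higher (background 1.35%), and their median was -0.10, against -0.030 for all 8618 genes. At least 2-fold lower medians in the high cells were found for 12 of the 42 and at least 2-fold higher ones for 5, against 27.4% and 17.1% of all genes. Both genes at -0.5 or lower serve vesicle endocytosis. Dnm1, the membrane-cutting GTPase dynamin 1, had medians of 529, 496 and 256 CPM from low to high Slc26a5 (correlation -0.56). Bin1, a membrane-bending amphiphysin, had medians of 381, 297 and 50.5 CPM (correlation -0.58). With mitochondrial share removed, Dnm1 stood at -0.41 and Bin1 at -0.46.

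Of the 11 endocytosis genes, Dnm1 and Bin1 included, 10 had negative correlations with a median of -0.17, against 56.7% negative and a median of -0.030 over all genes. Snap91, the clathrin assembly protein AP180, stood at -0.44, Clta at -0.15 and Cltc, the clathrin heavy chain, at -0.055 (0.029 corrected for the mitochondrial share), with Cltc at medians of 639, 692 and 575 CPM. Dnm3 was the only positive one (0.18), and it was detected in 36 cells.

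Of 7 listed genes that supply glutamate 4 were compared. None of these reached -0.5 or 0.5 with Slc26a5, against 0.87% and 1.35% of all genes. The glutamine carriers Slc38a1 and Slc38a2 were detected in all 73 cells and stood at 0.22 and 0.071. Glud1, glutamate dehydrogenase, stood at -0.31, with medians of 56.5, 88.1 and 0.351 CPM from low to high Slc26a5. It was the only gene of the 4 at least 2-fold lower in the high cells, against 27.4% of all genes. Glul, Slc1a3 and Slc1a1, for glutamine synthesis and glutamate uptake, were detected in 3, 5 and 0 cells. Clcn3, a vesicular chloride exchanger, stood at -0.13.

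Partners of otoferlin and of the cysteine string proteins that were compared also stayed within -0.5 and 0.5, as most genes did. Only 0.87% of all genes reached -0.5 or lower and 1.35% reached 0.5 or higher. Myo6, a motor reported to bind otoferlin, had medians of 1735, 1887 and 1791 CPM (correlation 0.0059), and Ap2m1, a clathrin adaptor subunit, 355, 378 and 444 CPM (0.060). Nsf (-0.25) and Sh3gl2 (-0.20) were the lowest of these 6 partner genes, and Rab8b (0.083) the highest. In the high cells Nsf had 0.41, Sh3gl2 0.46 and Rab8b 2.93 times the low median. No other gene of the 6 differed at least 2-fold, against 27.4% of all genes lower and 17.1% higher. Hspa8, the chaperone that works with cysteine string proteins, had medians of 3033, 3432 and 3463 CPM (0.20). Snap25, a release protein that they protect, stood at 0.19, and Zdhhc17, an enzyme that attaches their palmitate, at -0.34. Zdhhc17 had medians of 5.20, 0.128 and 0.0650 CPM from low to high Slc26a5, all under detection. For the 6 genes that insert tail-anchored proteins such as otoferlin into membranes, the median was -0.041. Caml, the insertion receptor subunit, was the lowest at -0.30 and Asna1, the targeting ATPase, the highest at 0.20. Of the 6, Caml alone differed at least 2-fold, with 0.31 times the low median in the high cells.

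Vesicle membrane proteins of brain synapses were sparse. Of 9 listed, Syngr1 alone was detected in at least 37 cells (47 cells, median 41.9 CPM, correlation -0.25). Syp was in 33 cells and Sv2a in 34, Sypl had the highest correlation (0.22), and Syn2 was in 0 cells.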

How the data were processed

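Per the labels, single cells were picked by hand under fluorescence and each made 1 library. The deposited table holds raw read counts per gene, and per the submitters' processing notes HISAT2 2.2.1, StringTie 2.2.1 and featureCounts 2.0.1 were used with mm10; their settings and the annotation are not given in the sources used here. Deposited values are whole numbers with totals that differ between cells. Totals left out the WPRE reporter row (0.0161% of counts). Levels are CPM over the remaining total, with 11027945 to 37183702 counts a cell; 0 columns of other samples were used. Lengths and positions came from GENCODE vM21 (mm10) exons and promoters from RefSeq.

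All 73 cells form 1 group of 1 sample, so no test was run and counts were never modelled; correlations are Spearman's. The trend of squared CV is a lowess fit (span 0.3). The members and gene lists were chosen with earlier results of these data known. Named genes are the members, hair cell reference genes, each member's 5 closest genes with an official name, and pathway genes from the lists; a few genes that this rule or the lists name are not reported here. The scripts ran under Python 3.11.15 with scipy 1.17.1, statsmodels 0.14.6, pandas 2.3.3 and numpy 2.4.6, and were checked on simulated data.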

Additional observations from a re-analysis of the deposited data

Results flagged for a closer look

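The table holds 1 row outside the gene measurements, WPRE, named as an RNA-stabilising element often built into reporters, which gave a signal in all 73 cells. Its level ran from 44.1 to 429 CPM with a median of 144 CPM, above the 0.272 CPM that a count of 0 allows in the shallowest library. Its rank correlation was -0.080 with Slc26a5 and -0.32 with Slc17a8, and between -0.041 and 0.096 with the other members.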

How the results depend on the processing

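Of 264 values under 21 alternatives, 245 stayed within the tolerance, 19 moved and 0 called values changed direction. For rank correlations the tolerance was 0.12. Corrected for the mitochondrial share, the correlation with Slc26a5 was -0.147 for Slc17a8 and -0.181 for Otof. Corrected for the ribosomal protein share (chosen after seeing the data), it was -0.0405 for Otof, -0.416 for Slc7a14 and -0.501 for Dnajc5b. Corrected for mitochondrial share, total counts and genes together (also chosen afterwards), it was -0.166 for Slc17a8, -0.0922 for Otof, -0.432 for Slc7a14 and 0.0633 for Dnajc5. With Ocm as the ordering gene it was -0.158 for Otof and -0.459 for Dnajc5b. Without the 19 cells holding rare markers it was -0.190 for Slc17a8. Slc7a14 no longer reached -0.5 under the 3 corrections named (-0.468 for the mitochondrial share) or with Ocm (-0.482), and Dnajc5b with Ocm. The cause was not tested.

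The Slc7a14 fold was 0.403 without the rare-marker cells, 0.131 with ranges under 1 and from 200 CPM, and 0.129 between the lowest and highest 24 cells. Detection at 50 CPM gave 75.3% of cells for Slc7a14 and 68.5% for Dnajc5. Against the trend of squared CV, Otof also passed Slc7a14 under median-of-ratios scaling (0.28 and 0.22) and with totals without mitochondrial genes (0.25 and 0.23). Median-of-ratios scaling swapped the neighbours Otof with Slc17a8 and Dnajc5 with Slc7a14 in the order by CV, and leaving out libraries 5 and 67 swapped the last pair. No paired analysis was possible because there is 1 group. Deep libraries make the counting error of reads small, but technical error before amplification was not measured. The lack of animal labels limits every statement to these cells.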
